A study of Mus musculus and Rattus norvegicus with 32 samples.

Results

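Chemokines are small secreted or membrane-bound proteins that direct the movement of leukocytes, and their receptors are G protein-coupled receptors on the responding cells. They are named by the spacing of the first conserved cysteines: adjacent in the CC ligands (Ccl), separated by a single residue in the CXC ligands (Cxcl) and by a longer gap in Cx3cl1. In the heart, ligands are made by endothelial cells, fibroblasts, resident macrophages and cardiomyocytes, and recruited monocytes, neutrophils and lymphocytes carry most of the receptors. Every gene whose symbol names a Ccl or Cxcl ligand or a Ccr or Cxcr receptor was taken, together with Cx3cl1 and its receptor Cx3cr1. This gave 65 of the 55487 rows of each mouse table (45 ligand rows, 18 receptors and 2 pseudogenes, under 59 symbols) and 50 of the 32883 rows of the rat table (33 ligands and 17 receptors).

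The study examined METTL5, a methyltransferase of the RNA of the small ribosomal subunit, in cardiac hypertrophy, and 4 of its RNA sequencing tables were used, each with 4 libraries against 4. Hearts of 1-month-old C57BL/6 mice were from METTL5-KO animals or controls. Hearts of 3-month-old mice were from METTL5-cKO animals, in which Myh6-Cre deletes floxed exons 2 to 4 in cardiomyocytes, so that the gene stays intact in fibroblasts, endothelial cells and leukocytes, or controls. The same METTL5-cKO genotype and controls were compared 4 weeks after transverse aortic constriction (TAC), which loads the left ventricle with pressure, in mice also labelled 3 months old. The genotype label reads Mettl5-KO for both kinds of knockout and the titles tell them apart, while the operation of the TAC controls is given by their table and the study's methods. Neonatal Sprague Dawley rat ventricular cardiomyocytes (NRVMs, postnatal day 2) were transduced with AdMETTL5, which carries the human coding sequence, or AdGFP, and both groups received 20 μM of the hypertrophic agent phenylephrine (PE) for 24 h. Fibroblasts had been depleted from the NRVMs by a pre-plating step, but fibroblast markers still summed to between 11530 and 12140 CPM (counts scaled to a common library total) in the AdGFP libraries. The controls were described as littermates. No source used here says whether a library was made from a single animal or a pool, so the p-values measure the spread between these libraries.

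The spacing that gives the ligands their names can be read from their coding sequences, and 6 mouse genes are shown for it. Ccl11, Cxcl12 and Cx3cl1 passed a test in mouse hearts. For Ccl2, Cxcl1 and Cxcl10 only the rat genes did, whose sequences are not shown. Each stretch runs 5′ to 3′ on the coding strand, begins 4 codons before the first conserved cysteine, and has both cysteine codons in capitals (GENCODE M21 transcripts, GRCm38).
Ccl2: gccccactcaccTGCTGCtactcattcacc
Ccl11: atcccaacttccTGCTGCtttatcatgacc
Cxcl1: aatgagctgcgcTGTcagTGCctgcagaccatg
Cxcl10: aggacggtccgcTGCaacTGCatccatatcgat
Cxcl12: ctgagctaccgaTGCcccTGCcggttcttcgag
Cx3cl1: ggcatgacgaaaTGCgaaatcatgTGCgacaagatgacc
The stretches lie within coding exons at chr11:82036494-82036523 for Ccl2 and chr11:82061684-82061713 for Ccl11, both plus strand, in a cluster of Ccl genes on that chromosome. They lie at chr5:90891484-90891516 (plus strand) for Cxcl1, chr5:92348169-92348201 (minus strand) for Cxcl10, chr6:117171496-117171528 (plus strand) for Cxcl12 and chr8:94778039-94778077 (plus strand) for Cx3cl1. In Cxcl1 the codons just before the first cysteine encode Glu-Leu-Arg, the motif of the CXC ligands that attract neutrophils through Cxcr2, and Cxcl10 and Cxcl12 lack it. Of the 36 mouse ligand genes read in this way, 24 had the CC spacing, 5 had CXC after Glu-Leu-Arg, 6 had CXC without it and Cx3cl1 had 3 residues between its cysteines.

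The values are estimated read counts per gene that the authors made with StringTie from HISAT2 alignments, and levels are given as CPM on library sizes scaled by edgeR's TMM method. Total counts per library lay between 19899033 and 21804907 in hearts. In NRVMs they were 17344430 to 18085339 in the AdGFP libraries and 14324700 to 14642431 in the AdMETTL5 libraries. Libraries carry numbers 1 to 4 within a group, taken from the labels at 1 month and otherwise from the order of the numbers in their column headings. Control library 1 at 1 month stood apart: its median correlation with the other controls was 0.943, and it held 57.3 CPM of summed neutrophil markers, against 1.90 to 12.04 in the METTL5-KO libraries. After TAC, METTL5-cKO library 4 was closer to the control libraries (median correlation 0.974) than to its own group (0.971). Mettl5 itself did not separate the mouse genotypes, with log2 fold changes of 0.22, -0.18 and -0.04 at 1 month, at 3 months and after TAC (adjusted p = 0.973, 0.884 and 0.874), so the groups rest on the labels. The count of a whole gene need not fall where only some of its exons are deleted, so this is a weak check of the genotype. The study reported that the floxed exons were almost undetectable in METTL5-cKO hearts, which whole-gene counts cannot show. Rat Mettl5 was higher with AdMETTL5 by a log2 fold change of 0.32 (adjusted p = 0.00295). In bulk samples, fewer cells of a type and less RNA per cell cannot be told apart.

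In the mouse heart, of the 65 rows, 32 passed edgeR's filter on low counts (minimum count 10) at 1 month, 29 at 3 months and 32 after TAC, which stood for 27, 26 and 29 symbols. No count was found in any library for 8, 8 and 7 rows. The ligands Ccl1, Ccl20, Ccl26 and Cxcl15 and the receptors Ccr3 and Cxcr1 were listed at 0 in each of the 3 mouse tables. An occasional gene with a mean of at least 100 counts was also listed at 0 in a library (up to 10 of 10002 such genes). These genes were not inspected, so whether a 0 can be a failed estimate was not tested. In NRVMs 22 of the 50 members passed the filter, 20 ligands and 2 receptors, and 15 had no count.

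Per length of exon, Cxcl12, the ligand of Cxcr4 that retains progenitor cells and acts on endothelium, had the highest level of any single row in each mouse table. Its mean was 17.2 CPM per kb of exon at 1 month (lowest 13.9, highest 25.3, 8 libraries), 17.3 at 3 months (12.1 to 29.0) and 12.6 after TAC (7.02 to 16.9). Ccl6, a myeloid CC ligand, had 5.15 CPM per kb at 1 month (2.94 to 10.1), 8.78 at 3 months (6.86 to 10.6) and 9.88 after TAC (7.41 to 16.2). After TAC the ranges of Cxcl12 and Ccl6 overlapped. Cxcl14, a ligand of stromal tissues, had 2.43 CPM per kb at 1 month (0.651 to 5.95), 8.54 at 3 months (6.58 to 10.8) and 8.31 after TAC (3.67 to 13.5). Among the receptors, Cxcr4 had the highest level per kb, with 3.01, 2.75 and 3.44 CPM per kb in the 3 tables. Rows of Ccl21a, Ccl21b, Ccl21c and Ccl21d, near-identical ligands of Ccr7 that occupy several loci and unplaced scaffolds, also ranked among the first 10, but some of them held the same count in every library. Their reads can be split between copies in any proportion, so their values are uncertain. Summed, the 7 rows came to 48.8, 32.5 and 45.3 CPM per kb at 1 month, at 3 months and after TAC, numerically above Cxcl12. Their exon lengths run from 402 to 870 bases, so reads placed on the shorter copies weigh more in the sum. Rows with the same counts may also hold the same reads, so the sum does not rank these copies against Cxcl12. Reads of the 3 rows of Ccl27a and of Ccl27b can likewise be split between copies. The value given for Ccl27a is that of its row on chromosome 4 (ENSMUSG00000073888).

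**Figure D1:**
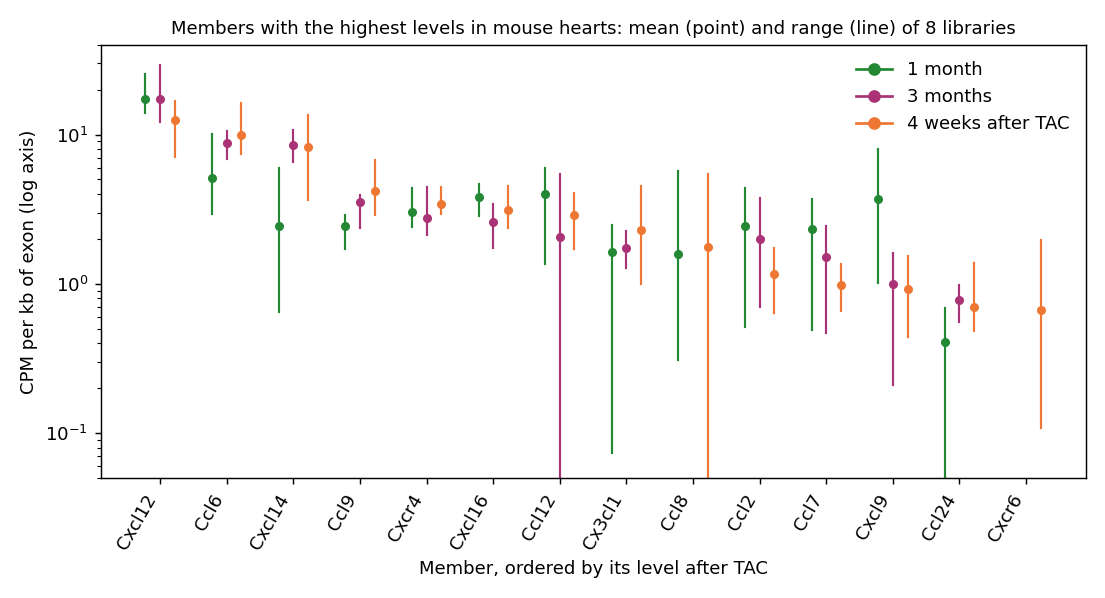
Level per kb of exon (log axis) of the 14 members with the highest levels after TAC that passed the filter, leaving out the Ccl21 and Ccl27 copies. Points are means of the 8 libraries of a table and lines the range, drawn to the foot of the axis where a library was at 0. A gene without a point in a table did not pass the filter there. Cxcl12 lies highest of these in each table.

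At 1 month, no chemokine or receptor passed the test between METTL5-KO and control hearts. edgeR's quasi-likelihood test called 0 of 32 at an adjusted p under 0.05, against 0.00612% of all genes tested, and DESeq2 also called 0. At an unadjusted p under 0.05 there were 2 members, both lower in METTL5-KO, against 4.57% of all genes. Ccl27a, a skin-type ligand of Ccr10, had 3.61, 3.42, 3.81 and 3.30 CPM in the control hearts and 2.56, 2.79, 1.99 and 2.43 in the METTL5-KO hearts. The groups did not overlap (log2 fold change -0.53, SE 0.152, unadjusted p = 0.00633, adjusted p = 0.973). Cxcl14 had 3.57, 3.04, 10.9 and 7.80 CPM in the controls and 1.19, 2.79, 3.49 and 2.72 in METTL5-KO, where the groups overlapped (log2 fold change -1.30, SE 0.45, adjusted p = 0.973).

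The other abundant members at 1 month varied more among libraries than between groups. Cxcl12 had 113, 142, 175 and 207 CPM in the controls and 130, 124, 120 and 115 in METTL5-KO (log2 fold change -0.38, SE 0.174, adjusted p = 0.973). Cxcl9, an interferon gamma-induced ligand of Cxcr3, ranged from 3.06 to 13.4 CPM in the controls and from 6.50 to 24.3 in METTL5-KO (log2 fold change 0.70, SE 0.473). Cx3cl1 had 0.292 CPM in METTL5-KO library 4, against 5.59 to 7.24 in the other libraries of that group. The control library with high neutrophil markers had 7.68 CPM of Ccr2, the receptor of inflammatory monocytes, against 0.998, 1.87 and 1.36 in the other controls. It also had 18.2 CPM of Ccl6 (others 5.28, 9.54 and 8.59). The part of these cells in the comparison was not tested. Leaving out that library, or any other, gave 0 members called. The median log2 fold change of the 32 members was -0.37, beside -0.01 for all genes, and the median SE of members (0.39) was larger than that of all genes (0.175). Of the 22 members with a negative sign, 7 are Ccl21 rows that share reads, and the Ccl27a rows are also among them, so the median counts some signals repeatedly.

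At 3 months, the unstressed METTL5-cKO hearts likewise gave no member past the test. The count was 0 of 29, against 0.0732% of all genes, and 0 by DESeq2. At an unadjusted p under 0.05 there was 1 member, against 7.05% of all genes. This was Ccl2, the main monocyte attractant and ligand of Ccr2. It had 1.31, 2.02, 0.802 and 1.82 CPM in the controls and 2.26, 3.75, 1.84 and 4.29 in METTL5-cKO (log2 fold change 1.03, SE 0.339, adjusted p = 0.523). All METTL5-cKO libraries but number 3 were above the highest control library, so the groups overlapped. Its receptor Ccr2 had 1.45, 2.02, 1.32 and 1.87 CPM in the controls and 2.44, 4.45, 1.03 and 2.57 in METTL5-cKO (log2 fold change 0.66, SE 0.369, adjusted p = 0.837). Cxcl12 had 109, 147, 237 and 165 CPM in the controls and 137, 126, 98.8 and 115 in METTL5-cKO (log2 fold change -0.47, SE 0.21, adjusted p = 0.715). The abundant ligands Ccl6, Cxcl14, Ccl9 and Cxcl16 had log2 fold changes between -0.18 and 0.11. Over the 29 members the median log2 fold change was 0.05, beside 0.00071 for all genes.

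After TAC, 5 of 32 members differed between METTL5-cKO and control hearts: Cxcr6 and Cx3cl1 rose, and Cxcl12, Ccl11 and Ccl27a fell. Among all genes tested, 6.57% were called higher and 6.1% lower (12.6% higher when scaled by library size alone), so the share of members called in either direction (15.6%, against 12.7% of all genes) was close to that of the genome. The comparison is therefore described by its single genes. Past an absolute log2 fold change of 1 as well there were 3 members (Cxcr6, Cx3cl1 and Ccl11), against 2.9% of all genes. The groups did not overlap for 4 members (12.5%), against 18.6% of all genes. The members' median log2 fold change was 0.39, beside -0.0035 for all genes, and 23 of the 32 had a positive sign, of which 7 are Ccl21 rows that share reads.

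Cx3cl1 (fractalkine), a membrane-anchored ligand of endothelial and other cells that binds Cx3cr1 on monocytes, macrophages and lymphocytes, was higher in METTL5-cKO. The control hearts had 5.85, 3.94, 5.83 and 5.19 CPM and the METTL5-cKO hearts 17.8, 13.2, 13.1 and 7.44. All METTL5-cKO libraries lay above the controls, and library 4 was the lowest of them. Group means were 5.20 ± 0.896 and 12.9 ± 4.24 CPM (SD, n = 4), and the log2 fold change was 1.31 (SE 0.242, adjusted p = 0.0142), and the exact permutation test gave p = 0.0286, the smallest value that 4 against 4 libraries allow. The gene lies on the plus strand of chromosome 8 of GRCm38 from 94772009 to 94782427 and overlaps no other annotated gene. Its receptor Cx3cr1 had 2.33, 1.36, 3.07 and 2.09 CPM in the controls and 4.34, 4.56, 2.91 and 2.45 in METTL5-cKO, and did not pass the test (log2 fold change 0.69, SE 0.272, adjusted p = 0.118). The annotated span of Cx3cr1 overlaps 9 other genes, and 78 of its exonic bases are shared with Gm33858 on the opposite strand.

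Cxcr6, the receptor of Cxcl16 on activated T cells and natural killer cells, had the largest fold change of the members tested after TAC. It had 0.546, 0.389, 0.208 and 0.243 CPM in the control hearts and 2.06, 3.78, 1.94 and 1.10 in the METTL5-cKO hearts, with no overlap. The counts behind these were 11, 8, 4 and 5 in the controls and 47, 83, 48 and 22 in METTL5-cKO. Cxcr6 thus passed the filter through the METTL5-cKO group, and the size of its fold change rests on a low control level. On average it had 0.346 ± 0.154 and 2.22 ± 1.13 CPM (SD, n = 4), and the log2 fold change was 2.66 (SE 0.434, adjusted p = 0.0101), or 6.32-fold. The whole gene (chromosome 9 of GRCm38, plus strand, 123806475 to 123811760) lies inside Fyco1 on the opposite strand without overlap of their exons. Since the sources used here do not state whether strand was used in counting, reads of unspliced Fyco1 RNA could be assigned to it. Fyco1 fell by 0.35 on the log2 scale in the same hearts (SE 0.083, adjusted p = 0.0269). Summed T cell markers were 1.75 to 2.86 CPM in the controls and 2.59 to 6.65 in METTL5-cKO, with none of the 2 tested passing the test, and summed natural killer cell markers were 0 to 0.34 and 0.0877 to 1.37 CPM, with Gzma at 0 in all libraries. Their part in the difference was not tested. The ligand of Cxcr6, Cxcl16, a membrane-bound ligand and scavenger receptor, had 9.12 ± 2.44 CPM in the controls and 9.88 ± 2.77 in METTL5-cKO (SD, n = 4; log2 fold change 0.12, adjusted p = 0.762). Cxcl16 shares 552 exonic bases with Zmynd15 on the opposite strand.

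Cxcl12 was lower in METTL5-cKO hearts. It had 135, 125, 137 and 138 CPM in the controls and 69.4, 63.2, 57.4 and 102 in METTL5-cKO. The groups did not overlap, and METTL5-cKO library 4 was nearest to the controls. The means of 134 ± 6.00 and 72.9 ± 19.7 CPM (SD, n = 4) gave a log2 fold change of -0.88 (SE 0.16, adjusted p = 0.0139), or 1.84-fold lower. Its receptor Cxcr4 had 6.28 ± 1.17 CPM in the controls and 6.14 ± 0.678 in METTL5-cKO (SD, n = 4; log2 fold change -0.03, adjusted p = 0.908), and the atypical receptor Ackr3, which takes up Cxcl12, had 49.4 ± 3.44 and 45.6 ± 2.15 CPM (log2 fold change -0.11, adjusted p = 0.329). Of 8 endothelial markers 5 fell with it (Kdr by 0.70, Tie1 by 0.60, Tek by 0.54, Cdh5 by 0.49 and Pecam1 by 0.41 on the log2 scale), and their sum went from 707.6 to 842.6 CPM in the controls to 503.3 to 639.1 in METTL5-cKO. The part of endothelial RNA in the lower Cxcl12 was not tested.

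Ccl11 (eotaxin), a ligand of Ccr3 that attracts eosinophils, was low in these hearts and fell further. It had 0.496, 1.22, 0.989 and 0.776 CPM in the controls and 0.0877, 0.273, 0.243 and 0.499 in METTL5-cKO, and METTL5-cKO library 4 reached just above control library 1. The log2 fold change was -1.67 (SE 0.426, adjusted p = 0.035). Ccl11 passed the filter through the control group, with 2, 6, 6 and 10 counts in METTL5-cKO. The call was lost without any of 6 of the 8 libraries, which left the adjusted p at no more than 0.0983. Fibroblast markers, of which 7 of 8 rose, summed to between 578.5 and 766.7 CPM in the controls and between 924.4 and 2987 in METTL5-cKO. Ccl27a fell from 3.72, 2.53, 3.90 and 3.49 CPM to 2.06, 2.19, 2.59 and 2.097 (log2 fold change -0.61, SE 0.162, adjusted p = 0.0396), with a slight overlap. It was called in the fit without control library 2 and lost in each of the other 7 that left a library out (highest adjusted p 0.106), under library-size scaling and by DESeq2. It shares 8 exonic bases with Il11ra1 on the opposite strand, whose log2 fold change was -0.03. Its receptor Ccr10 did not pass the filter on low counts, and Ccr3 was at 0.

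**Figure D2:**
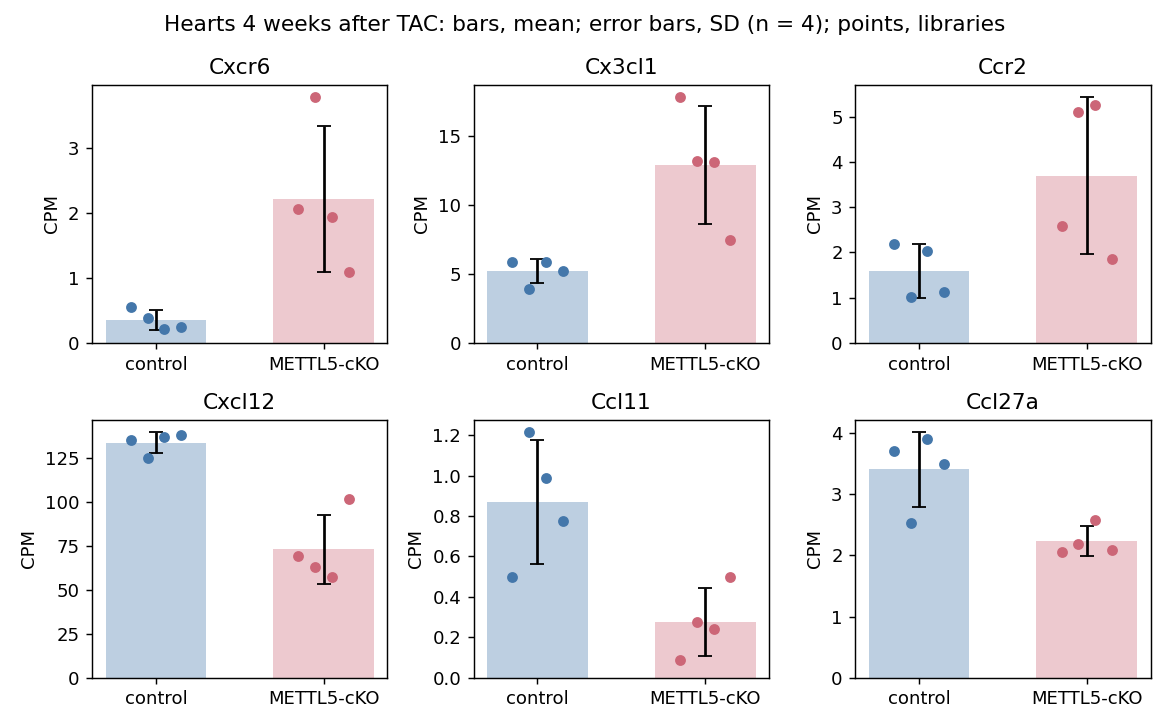
CPM of the 5 members that passed the test after TAC and of Ccr2, which did not, in control and METTL5-cKO hearts. Bars are means, error bars SD (n = 4) and points the libraries in order of their number. Cxcr6, Cx3cl1 and Cxcl12 do not overlap between the groups, and the fourth METTL5-cKO point is the nearest to the controls for these 3 genes.

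The receptors Ccr2 and Ccr1 and the ligand Ccl8 had positive fold changes after TAC without passing the test. Ccr2 had 2.18, 1.02, 2.03 and 1.12 CPM in the controls and 2.59, 5.10, 5.25 and 1.85 in METTL5-cKO, where METTL5-cKO library 4 lay within the range of the controls (log2 fold change 1.23, SE 0.382, adjusted p = 0.0626). Ccr1, a receptor of Ccl3, Ccl5 and Ccl7, had 1.54, 0.389, 0.416 and 0.291 CPM in the controls and 2.15, 2.14, 1.46 and 0.999 in METTL5-cKO (log2 fold change 1.35, SE 0.48, adjusted p = 0.0907), and was called without control library 1 (adjusted p = 0.02). Across omissions of single libraries its adjusted p reached 0.206. Ccl8, a monocyte-attracting ligand, did not overlap between groups, with 0.595, 0, 0.728 and 0.291 CPM in the controls and 2.76, 0.957, 1.01 and 0.899 in METTL5-cKO (log2 fold change 1.81, SE 0.641, adjusted p = 0.0908). Ccr1 and Ccl8 passed the filter through the METTL5-cKO group. Their control counts were 31, 8, 8 and 6 for Ccr1 and 12, 0, 14 and 6 for Ccl8. Of 14 macrophage markers 3 rose (Adgre1, Mrc1 and Lyz2), and their sum went from 300.9 to 383.4 CPM in the controls to 401.1 to 509.1 in METTL5-cKO. Their part was not tested. Without METTL5-cKO library 4 the count of members called was 13, of which 11 were higher and 2 lower, while 23.4% of all genes were called. The 9 members gained were Ccr1, Ccr2 and 7 Ccl21 rows. Ccr2 was called by DESeq2 and under scaling by library size alone, where the split was 3 higher and 2 lower. Omission of any single library other than METTL5-cKO library 4 did not give a call for Ccr2 (adjusted p up to 0.163). At an unadjusted p under 0.05 there were 18 members, of which 7 are Ccl21 rows that share reads, against 31% of all genes.

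No member's genotype effect after TAC differed from that at 3 months in edgeR's test of the interaction, which called 0 of 34 members and 0.00586% of all genes. At an unadjusted p under 0.05 there were 3 members, Cx3cl1, Ccl11 and Ccl27a, against 11.8% of all genes. Cx3cl1 had 7.56 ± 1.30 CPM in the 3-month controls and 6.13 ± 1.11 in METTL5-cKO (SD, n = 4; log2 fold change -0.30), so that its effect after TAC was higher by 1.63 on the log2 scale (SE 0.317, unadjusted p = 0.000109, adjusted p = 0.12). DESeq2 called this difference (adjusted p = 0.00139), and so did edgeR without METTL5-cKO library 4 after TAC (adjusted p = 0.00108). Omission of any other single library did not give a call in edgeR (adjusted p up to 0.271).

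The other genes of the pathway after TAC are counted beside the 6.57% of all genes called higher and 6.1% called lower, and with these list sizes several counts lie near those shares. Of atypical receptors and related genes, 2 of 10 tested rose. Ackr4, which takes up Ccl21 and other CC ligands, went from 6.15 ± 0.545 to 16.3 ± 5.08 CPM (SD, n = 4; log2 fold change 1.41, adjusted p = 0.00851), and Cmklr1, the chemerin receptor, had a log2 fold change of 0.52. Of 23 tested genes of receptor signalling 4 rose: the receptor kinase Grk5 (log2 fold change 1.16), the tyrosine kinase Ptk2b (0.92), the Rac exchange factor Tiam1 (0.81) and the oxidase subunit Ncf1 (0.55). Of 9 tested inducers of chemokines, the receptors Tlr4 and Tnfrsf1a rose (0.64 and 0.40). Of 17 tested NF-kB targets Ptgs2 and Tnip1 rose (1.28 and 0.88) and Sod2 fell by 0.45. Of 19 interferon-stimulated genes 10 fell and none rose, among them Gbp5 (log2 fold change -1.05), Rsad2 (-1.28), Irf1 (-0.63) and Gbp2 (-0.70). The interferon-induced ligand Cxcl9 had 4.61, 3.06, 3.85 and 2.86 CPM in the controls and 3.25, 1.91, 1.33 and 1.45 in METTL5-cKO (log2 fold change -0.85, SE 0.284, adjusted p = 0.0763), and was called without METTL5-cKO library 1 (adjusted p = 0.0241). Omission of any other single library did not give a call for Cxcl9 (adjusted p up to 0.168). Sdc1 and Sdc2, heparan sulfate proteoglycans that can hold chemokines at the cell surface, rose (0.56 and 0.50) among 10 such genes tested. At 1 month and at 3 months no gene of these lists passed the test.

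In PE-treated NRVMs, most of the measured chemokines rose with AdMETTL5. Of 22 members tested, 16 rose and 1 fell, against 27.1% of all genes called higher and 25.7% called lower. Under scaling by library size alone the members gave the same counts, and 39% of all genes were called higher. Past an absolute log2 fold change of 1 there were 10 members, against 5.85% of all genes. The groups did not overlap for 16 members (72.7%), against 48.4% of all genes. The median log2 fold change was 0.78 for the members and -0.0022 for all genes. The members that rose were 6 CC ligands, 7 CXC ligands, Cx3cl1 and the receptors Ccr1 and Cxcr4. Of these, Ccl12 and Ccr1 passed the filter through the AdMETTL5 group, and both are among the 10 past a log2 fold change of 1. With at least 10 counts required in every library, they were not tested, 14 members rose and 1 fell, and 28% of all genes were called higher. Summed member RNA was 502.6 to 603.0 CPM in the AdGFP libraries and 807.7 to 988.3 CPM in the AdMETTL5 libraries.

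Cxcl10, which like Cxcl9 and Cxcl11 is induced by interferons and attracts activated T cells through Cxcr3, had the largest fold change of the 22 members. It had 14.95, 11.4, 5.72 and 7.44 CPM with AdGFP and 89.3, 100.5, 107.6 and 60.2 with AdMETTL5. All AdMETTL5 libraries were well above the highest AdGFP library. The averages were 9.88 ± 4.14 and 89.4 ± 20.9 CPM (SD, n = 4), and the log2 fold change was 3.18 (SE 0.243, adjusted p = 7.06e-07), or 9.05-fold. Cxcl11 had 1.19, 0.722, 0.642 and 1.22 CPM with AdGFP and 2.36, 3.83, 3.81 and 1.53 with AdMETTL5, with no overlap (log2 fold change 1.6, SE 0.325, adjusted p = 0.00133). Cxcl9 did not pass the filter and had 0 counts in the AdGFP libraries and 4, 0, 6 and 0 counts in the AdMETTL5 libraries. The receptor Cxcr3 had 2 counts in a single AdGFP library and 5 in a single AdMETTL5 library. The T cell markers Cd3d, Cd3e and Cd3g were at 0 in all libraries, while Lck of the same list rose and Cd4 fell. All T cell markers summed to 5.52 to 7.06 CPM with AdGFP and 4.66 to 5.65 with AdMETTL5. All 20 interferon-stimulated genes of the list rose, with a median log2 fold change of 3.69, among them Stat2 (1.78), Ifit2 (2.13) and Irf7 (4.22). Their summed level was 201 to 313 CPM with AdGFP and 1377 to 2156 CPM with AdMETTL5, and its part in the change of Cxcl10 and Cxcl11 was not tested.

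Of 10 CC ligands tested, 6 rose, most of them known to attract monocytes, 1 fell and 3 did not pass the test. Ccl2 had 131.5, 137, 103 and 97.7 CPM with AdGFP and 234, 219, 245 and 199 with AdMETTL5 (log2 fold change 0.94, SE 0.105, adjusted p = 1.53e-05). Ccl7, a further ligand of Ccr2, had 14.7, 15.1, 10.7 and 11.3 CPM with AdGFP and 34.1, 29.9, 37.9 and 26.6 with AdMETTL5 (log2 fold change 1.31, SE 0.131, adjusted p = 5.94e-06). In both genes the groups were clearly separated. Ccl3 and Ccl4, inflammatory ligands made by activated macrophages and other cells, had log2 fold changes of 1.22 (SE 0.145) and 1.69 (SE 0.146). Ccl4 had 1.54, 1.14, 1.40 and 1.28 CPM with AdGFP and 4.25, 4.83, 4.46 and 3.88 with AdMETTL5. Ccl12, a rodent ligand of Ccr2, had 1.48, 1.44, 0.467 and 0 CPM with AdGFP and 2.63, 3.09, 3.15 and 1.65 with AdMETTL5 (log2 fold change 1.63, SE 0.503, adjusted p = 0.0164). Its counts were 25, 24, 8 and 0 with AdGFP and 39, 46, 48 and 26 with AdMETTL5, so it passed the filter through the AdMETTL5 group. It was not called by DESeq2 (adjusted p = 0.142) or without AdMETTL5 library 3. With at least 10 counts required in every library, Ccl12 was not tested. Ccl6 overlapped between groups (log2 fold change 0.69, SE 0.267, adjusted p = 0.0473) and lost its call without any of 6 of the 8 libraries and by DESeq2. Of 8 macrophage markers tested 5 fell and none rose, and the summed level of the markers was 107 to 125 CPM with AdGFP and 76.7 to 90.8 with AdMETTL5; their part in the values of these ligands was not tested.

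The CXC ligands that attract neutrophils through Cxcr2 also rose. Cxcl1 had 35.4, 41.7, 34.5 and 40.8 CPM with AdGFP and 51.1, 46.4, 59.7 and 68.8 with AdMETTL5 (log2 fold change 0.57, SE 0.111, adjusted p = 0.000991). Cxcl2, Cxcl3 and Cxcl6 had log2 fold changes of 1.04 (SE 0.191), 0.88 (SE 0.126) and 1.27 (SE 0.218). For all 4 genes each AdMETTL5 library was above each AdGFP library. Cxcr2 had no count in any library. Of the 6 neutrophil markers listed for the rat, S100a9, Retnlg and Mmp8 were at 0 in all libraries. All 6 summed to 1.685 to 2.101 CPM with AdGFP and 0 to 1.822 with AdMETTL5. Just 1 of them passed the filter, and it did not pass the test (log2 fold change -0.991).

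The membrane-bound ligands were the most abundant members by CPM in the NRVMs together with Ccl2, a comparison that is not corrected for length because no rat gene lengths were used. Cx3cl1 had 207, 204, 171 and 183 CPM with AdGFP and 268.5, 260, 272.5 and 215 with AdMETTL5, with a log2 fold change of 0.41 (SE 0.0811, adjusted p = 0.00112). Cxcl16 had 103, 107, 85.7 and 85.0 CPM with AdGFP and 130, 133, 143 and 121 with AdMETTL5 (log2 fold change 0.47, SE 0.0803, adjusted p = 0.000406). Neither group pair overlapped. Their receptors were nearly absent: Cx3cr1 had 3, 0, 0 and 2 counts with AdGFP and none with AdMETTL5, and Cxcr6 had 1 count in all libraries together.

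A single member fell. Ccl20, the ligand of Ccr6 on lymphocytes and dendritic cells, had 14.6, 15.6, 14.01 and 13.95 CPM with AdGFP and 6.68, 6.175, 7.48 and 6.49 with AdMETTL5. The groups were far apart relative to their spread (log2 fold change -1.11, SE 0.0833, adjusted p = 5.9e-07), and Ccr6 had no count. The mouse hearts had no count of Ccl20. Cxcl12 averaged 26.5 ± 2.48 CPM in the AdGFP group and 25.2 ± 2.65 in the AdMETTL5 group (SD, n = 4), where the log2 fold change was -0.07 (SE 0.0874, adjusted p = 0.509). Ccl9, Ccl22, Ccl27 and Cxcl13 did not pass the test either, with log2 fold changes between -0.79 and 0.02. Cxcl13 was called without AdGFP library 2 (adjusted p = 0.0303) but not without any other single library (adjusted p up to 0.29).

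Just 2 receptors passed the filter in NRVMs, and both rose. Cxcr4, the receptor of Cxcl12, had 9.49, 9.45, 7.82 and 8.49 CPM with AdGFP and 12.3, 13.1, 14.6 and 10.6 with AdMETTL5 (log2 fold change 0.52, SE 0.107, adjusted p = 0.0015). Ccr1, a receptor of Ccl3 and Ccl7, had 5, 9, 7 and 7 counts with AdGFP and 9, 14, 16 and 19 with AdMETTL5 (log2 fold change 1.19, SE 0.323, adjusted p = 0.00811). Ccr1 passed the filter only through the AdMETTL5 libraries, so from its AdGFP level it could be tested only if it rose. It was not tested when at least 10 counts were required in every library. The deposited rat counts hold no gene under the symbol Ccr2, so this receptor could not be read in the rat. The atypical Cxcl12 receptor Ackr3 rose from 8.77 ± 1.02 to 13.9 ± 0.68 CPM (SD, n = 4; log2 fold change 0.67, adjusted p = 6.66e-05), and Ackr4 fell by 0.89 on the log2 scale (adjusted p = 8.68e-05).

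**Figure D3:**
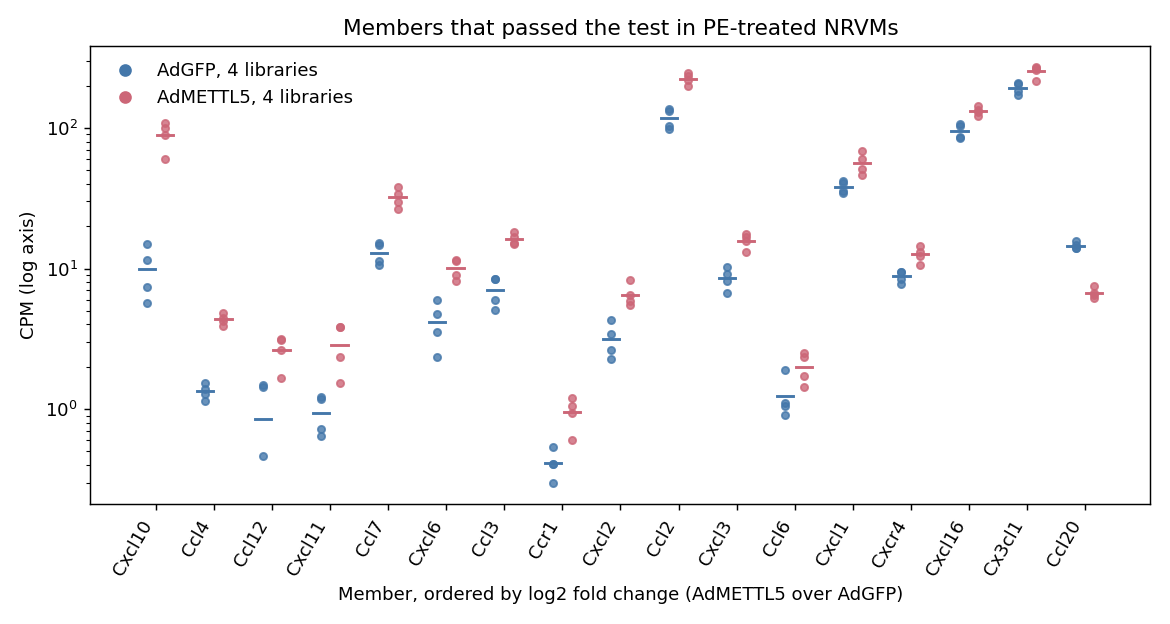
CPM (log axis) of the 17 members that passed the test in PE-treated NRVMs, ordered by log2 fold change. Points are libraries, 4 per group, and short lines the group means; an AdGFP library with 0 counts of Ccl12 is not drawn. Points of the groups overlap for Ccl6 only, and Ccl20 at the right is the single gene that is lower with AdMETTL5.

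The counts of the pathway lists in NRVMs stand beside 52.8% of all genes called, 27.1% higher and 25.7% lower. Of 16 tested cytokines and receptors that induce chemokines 11 rose, among them Csf1 (log2 fold change 0.44), Tlr2 (0.59) and Myd88 (0.43) with the smallest p values and the cytokines Tnf (1.05) and Il6 (2.23), and Il1r1 and Tlr4 fell by 0.45 and 0.49. Of 18 NF-kB targets 7 rose, such as Nfkbiz (1.17) and Nfkbia (0.26), and Tnip1 and Selp fell by 0.68 and 0.64. Of 22 receptor signalling genes 3 rose and 5 fell, with beta-arrestin Arrb2 at 1.07, Elmo1 at 0.49, Prkcb at -1.03 and Grk5 at -0.29. Of 9 tested proteoglycan and related genes 2 rose and 5 fell, among them Dpp4 (-1.44), a peptidase that trims several chemokines, and the syndecans Sdc1 (0.85) and Sdc2 (-0.33). All 8 cardiomyocyte markers fell, with a median log2 fold change of -1.31, and their sum went from 39450 to 48650 CPM with AdGFP to 14650 to 16250 with AdMETTL5, while fibroblast markers fell for 6 of 7 (9112 to 10040 CPM with AdMETTL5). The part of these changes in the members' CPM was not tested.

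**Figure D4:**
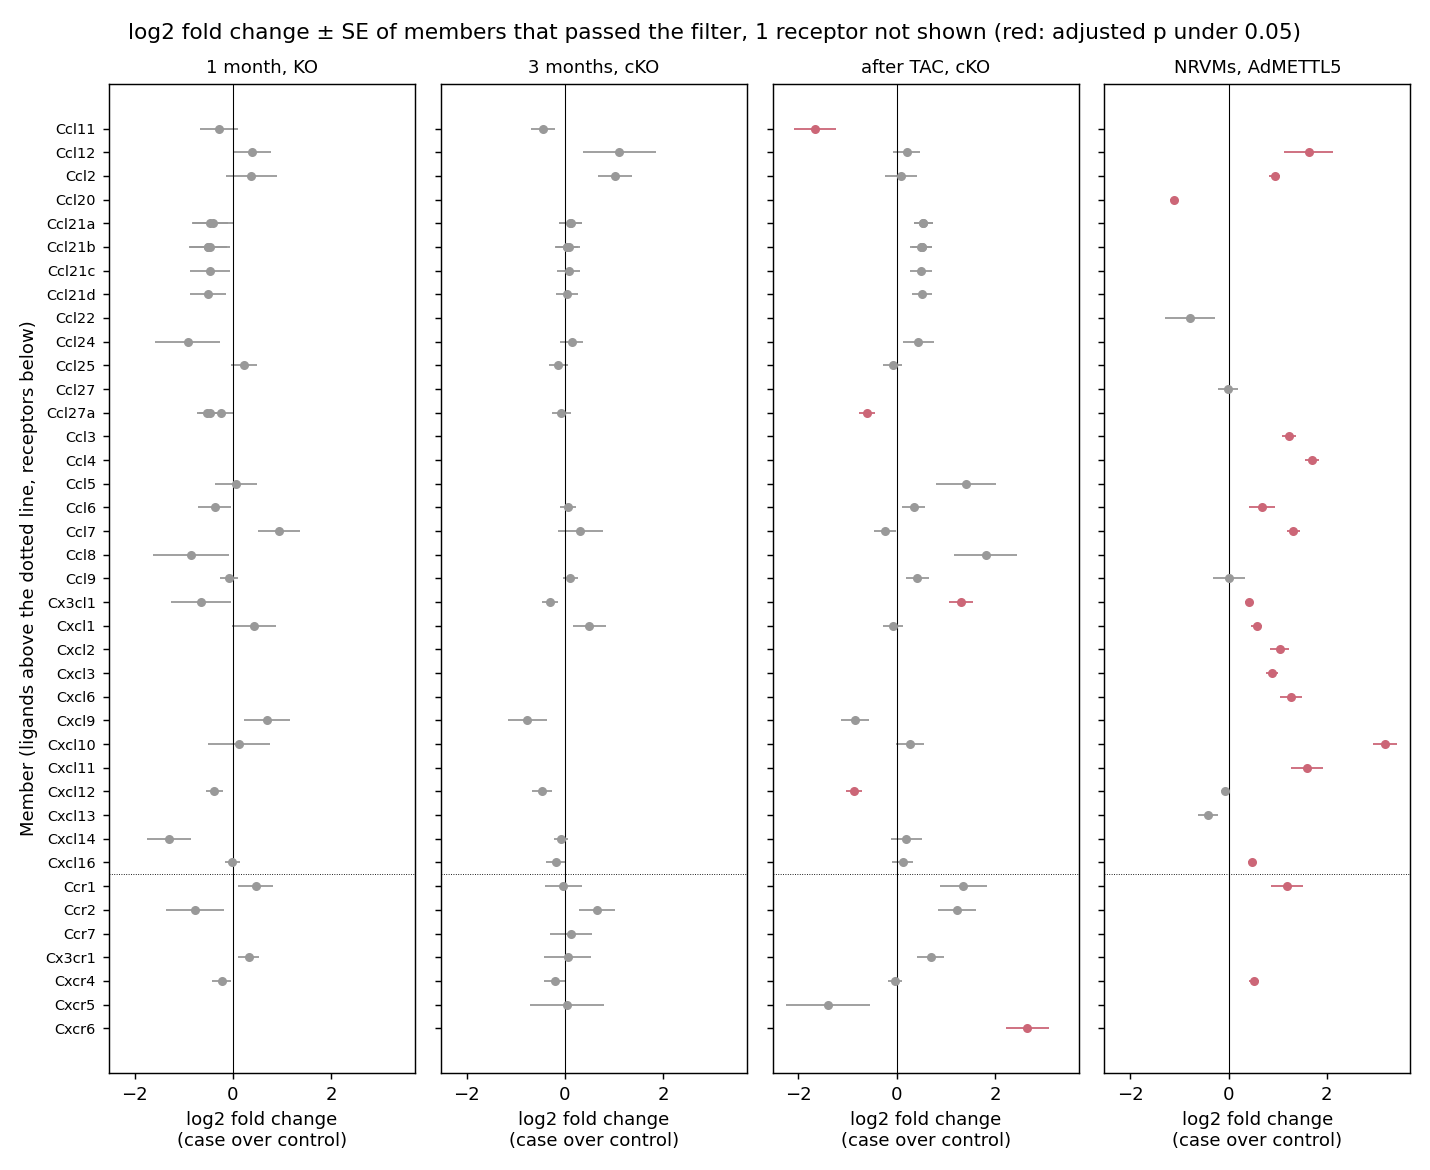
log2 fold change with its SE of the member rows that passed the filter, in the 4 tables, with 1 receptor not shown and ligands above and the other receptors below the dotted line. Red points passed the test: none at 1 month or 3 months, 5 after TAC and 17 in NRVMs, where 16 lie to the right of 0.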

How the data were processed

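The data were 24 RNA libraries of mouse hearts and 8 of NRVMs. The authors aligned reads with HISAT2 2.0.4 (GRCm38 for mouse, Rnor_6.0 for rat) and estimated counts per gene with StringTie 2.1.4, per the submitters' processing notes, which also name DESeq2 1.4.5. The deposited estimated counts are whole numbers without scaling. The strand setting and annotation are not given in the sources used here.

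Groups came from the labels. Columns at 1 month matched single samples, and the columns of the other tables gave a group only. Each table was fitted in edgeR 4.0.16 (R 4.3.3) with TMM, filterByExpr (minimum count 10, minimum total count 15) and the quasi-likelihood test, with Benjamini-Hochberg adjustment over all genes tested. A member was called, and said to rise or fall, at an adjusted p under 0.05. For single members, mean log2 CPM (prior count 2) was compared over all 70 labelings of the libraries (exact permutation test, two-sided). The pipeline was tested on simulated data. The members, the gene lists and the rules were chosen with earlier results of these data known. The named members were those called, the 8 with the highest mean CPM in each table, those at an unadjusted p under 0.05 without overlap, and the partners of called ligands and receptors. Of the other lists up to 4 called genes were named by smallest p, and marker genes, Ackr3 in hearts, Tnf, Il6 and Tlr4 in NRVMs, and members that only carry low counts or stand-apart libraries were named after their values were seen. Some genes are counted in the totals but not reported here by name. Exon lengths and overlaps came from GENCODE M21. Replicate numbers at 1 month did not pair the libraries, since the correlations of same-numbered libraries were 0.239, 0.12, -0.107 and 0.0782. Marker lists of monocytes, B cells, dendritic cells, mast cells and smooth muscle were also read; after TAC 1 monocyte marker (Vcan) rose and no B cell, dendritic cell, mast cell or smooth muscle marker passed the test, and no marker of any list did at 1 month or 3 months. In NRVMs Vcan, Itgax, Kit and Kdr rose (monocyte, dendritic cell, mast cell and endothelial lists), Lck rose and Cd4 fell (T cells), and 2 smooth muscle markers rose and 1 fell; no neutrophil, B cell or natural killer cell marker passed the test.

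Alternatives were the Wald test of DESeq2 (1.42.0), edgeR with the size factors of DESeq2 or with library sizes unscaled, other filters, a minimum fold change, an unadjusted p, omission of each library in turn and, at 1 month, a replicate block.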

Additional observations from a re-analysis of the deposited data

Results flagged for a closer look

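Of 98 groups of 4 libraries examined for the members named in a table, 3 held a library whose gap to its nearest neighbour was above Dixon's 95% critical value, and chance alone gives about 1 in 20. At 1 month, control library 3 had 14.1 CPM of Cxcl16, where the other controls had 10.6 to 10.9. After TAC, control library 4 had 18.6 CPM of Ccl6, where the other controls had 14.2 to 14.9. Also after TAC, METTL5-cKO library 1 had 2.76 CPM of Ccl8, where the other METTL5-cKO libraries had 0.899 to 1.01. None of these 3 members was called in the table concerned.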

How the results depend on the processing

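No member called in a table changed the sign of its log2 fold change there under an alternative. Of the members not called, scaling by library size alone turned Cxcr4 after TAC to 0.111 and Cxcl12 and Ccl27 in NRVMs to 0.0611 and 0.131. When a library was left out, the range crossed 0 at 3 months for Ccl6 (-0.0252 to 0.187), Ccl9 (-0.0323 to 0.19) and Cxcl14 (-0.185 to 0.0466), after TAC for Cxcr4 (-0.0977 to 0.114) and Cxcl16 (-0.0808 to 0.328), and in NRVMs for Ccl27 (-0.142 to 0.223) and Ccl9 (-0.175 to 0.254). The counts at 1 month and 3 months stayed at 0 except at an unadjusted p under 0.05, which gave 2 and 1. After TAC the count of 5 went to 3 with no filter on low counts, 3 with at least 10 counts in every library, 3 with a log2 fold change over 1 as well and 18 at an unadjusted p, and it ranged from 3 to 13 when a library was left out; 13 came without METTL5-cKO library 4, and 3 without control library 3 or 4 or METTL5-cKO library 2 or 3. Cxcl12 and Cx3cl1 kept an adjusted p under 0.05 in all of the fits run after TAC (up to 0.0489 and 0.0493), and Cxcr6 in all those that tested it (up to 0.042), since it did not pass the filter of 10 counts in every library. In NRVMs the count of 17 went to 10 with a log2 fold change over 1, and was 15 to 18 under the other alternatives, 16 to 18 when a library was left out. The interaction count of 0 became 1 with DESeq2 (Cx3cl1), 3 at an unadjusted p, and 0 to 1 when a library was left out. Scaling by library size alone moved the median of all genes by 0.147 after TAC and 0.135 in NRVMs (log2). The replicate block at 1 month gave 0 members called; no other paired analysis was possible because the columns of the other tables do not carry the labels' replicate numbers in both groups. Of 18 mouse receptors 5 to 7 passed the filter, and whether depth limited the others was not tested.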

Other observations

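Some members with too few counts for the test had all or most of their counts in one group of NRVMs. Ccl5, a CC ligand that attracts T cells and monocytes, had 0 counts in each AdGFP library and 34, 22, 23 and 0 counts in the AdMETTL5 libraries; it was called by DESeq2, and by edgeR without a filter on low counts. Ccl11 had 4, 7, 5 and 0 counts with AdGFP and 0 in each AdMETTL5 library, and edgeR called it without a filter. In hearts after TAC, Ackr1, an atypical receptor of venular endothelium and red cells that binds many chemokines, had 5, 5, 5 and 1 counts in the controls and 0 in each METTL5-cKO library. These genes were picked after their counts were seen.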
